A study of Mus musculus with 12 samples.

Results

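Immortalized mouse macrophages stimulated with lipopolysaccharide (LPS) for 120 min were compared with cells at 0 min, the control of the study, to find which mature microRNAs (miRNAs) had changed by the end of the time course. The samples were chosen by the stimulation time in their titles, 3 for each of the 2 times, which are 6 of the 12 samples measured. All were IMM cells, a macrophage line in permanent culture, grown in DMEM with heat-inactivated fetal bovine serum and HEPES and used 5 passages after thawing. The 120 min cells had received LPS from Enzo Life Sciences at 100 ng/mL, and the labels give no other difference in treatment or genotype between the groups. The other 6 samples, 30 and 60 min after LPS, entered the fit of the spread and 1 comparison near the end. The replicates are called biological, but the labels do not say whether they came from separate cultures or days. The p values therefore speak only of these samples of 1 line.

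LPS is the outer-membrane glycolipid of Gram-negative bacteria, and macrophages sense it through Toll-like receptor 4, which switches on NF-κB and a large inflammatory gene programme. MiRNAs are short RNAs cut from hairpin precursors and held by Argonaute proteins, and they repress messenger RNAs that pair with their seed, bases 2 to 8 from the 5′ end. Many are encoded as families that share a seed or as clusters that share a transcript. MiR-146a is a known NF-κB target that restrains the signal from Toll-like receptors, and the let-7 family is among the most abundant in differentiated cells.

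The comparison turned on a few leading risers and on families whose members had different calls, so the mature sequences of both are shown, with the seed in capitals. They are the RefSeq sequences of the mouse build GRCm38.p6, matched by name for 119 of the tested probes (36 by the exact name and 83 by the older name of the arm). Most probe names carry no arm suffix. For those the arm shown is the one that older nomenclature left without a suffix. The leading risers, among them the LPS-responsive miR-146a and the tumour-associated miR-221, had these sequences.
miR-376a-3p: aUCGUAGAggaaaauccacgu
miR-760-3p: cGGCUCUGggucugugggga
miR-3099-3p: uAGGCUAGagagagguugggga
miR-691: aUUCCUGAagagaggcagaaaa
miR-1902: aGAGGUGCaguaggcaugacuu
miR-490-3p: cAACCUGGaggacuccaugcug
miR-221-3p: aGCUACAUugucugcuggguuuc
miR-146a-5p: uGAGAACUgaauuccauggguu
No seed is shared among these 8 miRNAs. Next come members of families that held both called and uncalled or oppositely called miRNAs, each with the seed of its family.
miR-16-5p: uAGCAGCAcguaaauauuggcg
miR-15b-5p: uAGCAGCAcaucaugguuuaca
let-7a-5p: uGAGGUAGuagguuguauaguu
let-7b-5p: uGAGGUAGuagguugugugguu
let-7g-5p: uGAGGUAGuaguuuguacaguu
miR-106b-5p: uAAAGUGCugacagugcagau
miR-17-5p: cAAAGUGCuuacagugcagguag
miR-20a-5p: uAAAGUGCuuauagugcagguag
miR-103-3p: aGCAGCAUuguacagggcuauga
miR-107-3p: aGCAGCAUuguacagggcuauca
miR-29a-3p: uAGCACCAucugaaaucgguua
miR-29c-3p: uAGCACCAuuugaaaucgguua
The last set holds the steepest fallers and miRNAs of 1 hairpin or of paired clusters whose calls differed.
miR-2137: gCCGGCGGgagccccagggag
miR-126a-3p: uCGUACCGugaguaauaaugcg
miR-1224-5p: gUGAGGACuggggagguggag
miR-27a-3p: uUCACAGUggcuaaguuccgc
miR-24-3p: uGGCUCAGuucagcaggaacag
miR-142a-3p: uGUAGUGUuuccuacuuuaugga
miR-142a-5p: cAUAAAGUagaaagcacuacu

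The panel, a NanoString nCounter assay in which tagged miRNAs are counted by colour-coded probes, held 566 mouse miRNA probes. Of these, 166 had a mean above a cut set from the negative controls and were tested. The other 400 did not pass the filter and 263 of these were at the floor of 20 in every sample, so that a change in them was not detectable at this depth. Depth ran from 138655 to 231808 counts at 0 min and from 320818 to 365403 at 120 min, without overlap. The added ligation control RNAs, which the cells do not make, were also higher at 120 min, with 141.8 to 293 counts per 1000 positive-control counts at 0 min and 498 to 529 at 120 min (log2 difference 1.18, exact permutation test, two-sided, p = 0.1, the smallest that 3 against 3 samples can give). The housekeeping mRNAs, to which the deposited signal is scaled, overlapped at 881.6 to 2667 and 2008 to 3156 (log2 difference 0.58, exact p = 0.4). The 6 miRNAs listed as blood and myeloid markers all passed the filter (summed signal 10086 to 18091 at 0 min and 21829 to 45912 at 120 min). MiR-16 alone had a mean of 5607 at 0 min and 12670 at 120 min. With miR-21 and miR-146a it was among the miRNAs called higher, so the sum does not measure cell type. Of 34 markers of other cell types on the panel 6 passed the filter, miR-122 of liver and the 5 embryonic stem cell markers were at the floor throughout, and the mesenchymal and endothelial list summed to 702 to 1472 at 0 min and 799.9 to 1360 at 120 min.

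How much of a change was seen depended on the scale. The deposited signal was higher at 120 min for most miRNAs, with a median log2 change of 0.57 over the 166 tested and a positive change in 80.7% of them. In limma 36 miRNAs (21.7%) were higher and 0 (0%) lower at an adjusted p under 0.05, and at an unadjusted p under 0.05 the counts were 64 and 0. Every change on this scale had the same SE of 0.38, so these p values follow the size of the change alone. All 3 samples lay above every 0 min sample for 58 miRNAs (34.9%), and for 0 miRNAs did all lie below. The number of higher calls rested in part on single libraries: leaving out 0 min replicate 1 gave 77, leaving out the second 0 min replicate 19, leaving out the third 18, and leaving out 120 min replicate 1 gave 16. Summed miRNA signal was 259860, 149873 and 128061 at 0 min and 343138, 201318 and 187827 at 120 min, which overlap (log2 difference 0.46, exact permutation test, two-sided, p = 0.4). The part of depth and ligation yield in this shift was not tested.

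To describe each miRNA against the others, every sample was scaled to the geometric mean of its 100 most abundant mouse miRNAs, with factors of 0.920, 1.54 and 1.68 at 0 min and 0.606, 0.991 and 1.05 at 120 min, and all signal under 41.7 was set to that common floor. This relative signal says which miRNAs gained or lost share, not whether their amount per cell rose or fell. On this scale the median log2 change was -0.05, and 20 miRNAs (12.1%) were higher and 30 (18.2%) lower of 165 tested (limma, adjusted p under 0.05; 29 and 40 at an unadjusted p under 0.05). The 120 min samples lay wholly above the 0 min samples for 25 miRNAs (15.2%) and wholly below for 42 (25.5%). Among the 36 calls made with the deposited signal, 19 were higher on the relative scale too, and 17 did not pass there. MiR-30d was higher on the relative scale alone. None of the 30 lower miRNAs was called on the deposited scale, where 12 of them had a positive and 18 a negative change. Scaling to the ligation controls in place of the miRNAs left 14 lower, all among the 30, and 18 higher, all among the 20.

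**Figure D1:**
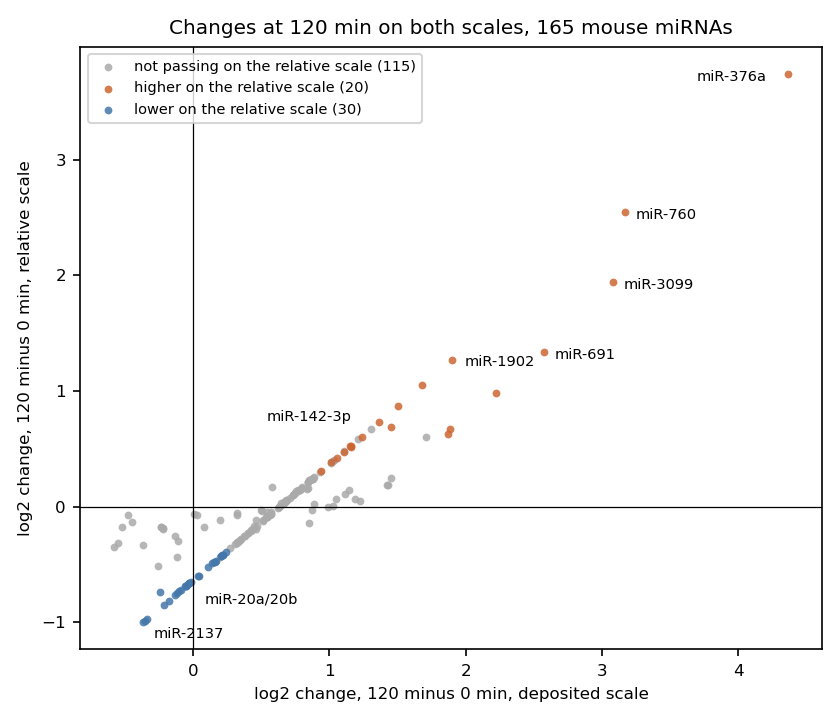
Log2 change from 0 to 120 min of 165 mouse miRNAs on the deposited scale (x axis) and on the relative scale (y axis), each point 1 miRNA, with 20 called higher in orange, 30 called lower in blue and 115 not passing in grey. The points follow a line shifted down from the diagonal, so that the blue points sit near 0 on the x axis and below 0 on the y axis.

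Among the 20 relatively higher miRNAs the largest change belonged to miR-376a, encoded in the Dlk1-Dio3 imprinted region (chr12:109723824-109723844, plus strand). Its relative signal was 47.9, 52.1 and 123.7 at 0 min and 472, 1258 and 1286 at 120 min. The lowest 120 min sample, replicate 1, was still far above the highest 0 min sample, and the log2 change was 3.74 ± 0.45 (limma, adjusted p = 0.000364). Of 57 miRNAs listed for that region on the panel 3 passed the filter, and the other two, miR-136 and miR-539, had changes of 0.48 (adjusted p = 0.0959) and 0.02 and did not pass. A further tested miRNA of the region that the list did not hold, miR-770-3p within Meg3, had -0.17 (adjusted p = 0.218).

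MiR-760 (chr3:122293615-122293634, minus strand) had relative signal of 110.4, 52.1 and 127.999 at 0 min and 321.9, 629 and 741 at 120 min, a log2 change of 2.54 ± 0.37 (adjusted p = 0.000652). As with miR-376a, replicate 1 was the lowest of the 120 min samples on this scale, and the groups did not overlap. MiR-3099, which lies within the imprinted gene Usp29 (chr7:6803638-6803659), was at the common floor in all 3 samples at 0 min and at 86.3, 194 and 256.5 at 120 min. MiR-691, within Robo2 (chr16:74342005-74342026, minus strand), was likewise at the floor at 0 min and reached 84.97, 89.3 and 159. For these 2 miRNAs the fitted changes, 1.94 ± 0.36 and 1.33 ± 0.23 (adjusted p = 0.00178 and 0.00118), are measured against the floor, under which the 0 min level is unknown. With all 3 samples at 0 min set to 1 value, the SE and adjusted p leave out the spread at 0 min. The same holds for every miRNA at the common floor in all 0 min samples.

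The next risers were measured above the floor in every sample. MiR-1902, inside Hipk3 (chr2:104428871-104428892, minus strand), had relative signal of 110.4, 131 and 127.999 at 0 min and 272, 326 and 297.5 at 120 min. Its 3 samples were close together at each time, and its log2 change was 1.27 ± 0.15 (adjusted p = 0.000364). MiR-490, within the muscarinic receptor gene Chrm2, went from 67.9 ± 9.79 at 0 min to 141.8 ± 20.95 at 120 min (SD, n = 3), a log2 change of 1.05 ± 0.13. These 2 and miR-376a shared the lowest adjusted p of the comparison on the relative scale, 0.000364.

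Better known in macrophages is miR-146a (chr11:43374435-43374456, minus strand), which lowers IRAK1 and TRAF6, transducers of Toll-like receptor signals. Its relative signal was 3165, 3648 and 3098 at 0 min and 5111, 4496 and 5444 at 120 min, and its deposited signal 3439.8, 2365 and 1849 at 0 min and 8437, 4535 and 5163 at 120 min. On both scales the groups were apart, by log2 changes of 0.60 ± 0.10 and 1.24 (adjusted p = 0.00118 and 0.00995). The relative call passed under all 18 alternatives, and the deposited one was lost without 0 min replicate 3 (1.03, adjusted p = 0.0869) and without 120 min replicate 1 (0.97, adjusted p = 0.106). MiR-21, another miRNA induced by LPS and located in Vmp1, had relative signal of 231, 267 and 303 at 0 min and 418, 447 and 299.9 at 120 min. The third 120 min sample lay within the 0 min range, and miR-21 was the one higher call of the 20 whose groups overlapped (0.53 ± 0.17, adjusted p = 0.0314). That call was lost under 8 of 18 alternatives, among them leaving out either of 0 min replicates 1 and 2 (0.43 and 0.53) or of 120 min replicates 1 and 2 (0.46 and 0.41), with changes from 0.36 to 0.70 over all alternatives.

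MiR-221 (chrX:19146307-19146329, minus strand), known for lowering the cell cycle inhibitor p27, had relative signal of 329.3, 329.8 and 263 at 0 min and 489, 494.1 and 543.7 at 120 min (log2 change 0.73 ± 0.15, adjusted p = 0.00299). MiR-222, its neighbour with the same seed, was at or near the floor and did not pass (0.06, adjusted p = 0.498). MiR-103, made from introns of 2 pantothenate kinase genes and linked to insulin sensitivity, had 444, 478 and 580.3 at 0 min and 787, 907 and 1058 at 120 min (0.87 ± 0.15, adjusted p = 0.00118). All 3 samples of miR-221 and of miR-103 at 120 min lay above those at 0 min.

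The other 10 risers changed less or were near the floor. MiR-1970, miR-466h and miR-701, all at the common floor in every 0 min sample, had means of 84.6 ± 17.8, 68.5 ± 18.9 and 65.3 ± 4.96 (SD, n = 3) at 120 min, and miR-764-3p went from 55.1 ± 11.7 at 0 min to 88.4 ± 11.3 at 120 min. For comparison, the highest of the 33 herpesvirus probes, whose viruses these cells are not labelled as carrying, was 51.5, 38.3 and 44.9 on the deposited scale in the 120 min samples, where miR-466h had 101, 55.0 and 85.3 and miR-701 had 103, 63.0 and 67.4. Both miRNAs were above those values in each of the 3 samples, but another herpesvirus probe reached 65.7 in 0 min replicate 1, more than the lowest 120 min value of either. MiR-1970 and miR-466h also passed the filter only through the 120 min samples, with means of 27.9 and 27.9 over the other 9 samples, so that they could enter the test only by being high at 120 min and their calls support nothing further. Well above it, miR-16 was the most abundant riser, with relative signal of 6570.4, 7407 and 8174 at 0 min and 10430.5, 9626 and 11688 at 120 min (0.52 ± 0.10, adjusted p = 0.00299). The remaining calls were a probe shared by miR-467h, miR-669d and miR-669l (0.52), miR-425 (0.47), miR-106b (0.42), miR-24 (0.38) and miR-30d (0.31). MiR-30d, at an adjusted p of 0.049, passed under 5 of 18 alternatives and kept its call only without 0 min replicate 3 or without 120 min replicate 2 among the single replicates (0.25 to 0.38). MiR-425 passed under 9 and, of the single replicates, only without 0 min replicate 3 (0.41 to 0.54). MiR-24 passed under 13 and lost its call without either of 0 min replicates 1 and 2 or without 120 min replicate 2 (0.30, 0.35 and 0.34). MiR-376a, miR-760, miR-1902, miR-490, miR-103, miR-221, miR-146a and miR-16 passed under all 18.

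Most of the 17 miRNAs called higher with the deposited signal alone were close to the floor at 0 min. MiR-92a, miR-3471, miR-301b, miR-222 and miR-466g were at the floor in all 3 samples there, and miR-92a and miR-222 passed the filter only through the 120 min samples. MiR-2183 had the largest deposited change of the 17 (1.71, adjusted p = 0.000123) and a relative change of 0.60 ± 0.22 (adjusted p = 0.0658). MiR-362-3p, from a cluster on the X chromosome, and miR-101a, a regulator of chromatin enzymes, had relative changes of 0.40 (adjusted p = 0.0581) and 0.15. Over all 115 miRNAs that passed in neither direction, relative changes ran from -0.51 to 0.67.

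**Figure D2:**
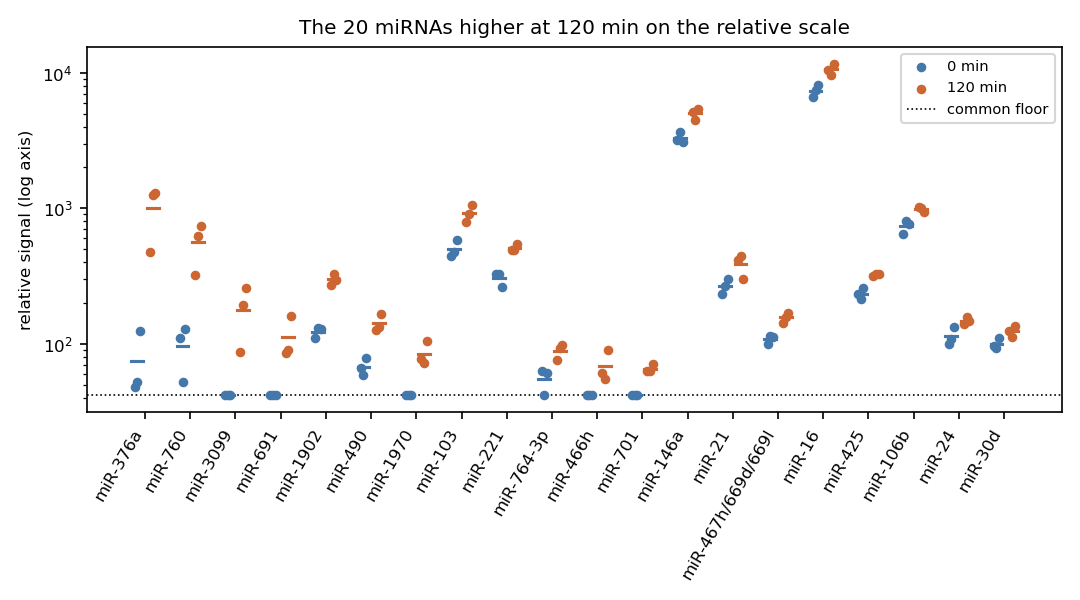
Relative signal (log axis) of the 20 miRNAs called higher at 120 min, ordered by the size of the change, with the 3 samples of 0 min in blue and of 120 min in orange, a short line at each mean and the common floor of 41.7 dotted. All pairs of groups are apart but those of miR-21, and miR-3099, miR-691, miR-1970, miR-466h and miR-701 are at the floor at 0 min.

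Every one of the 30 relatively lower miRNAs was above the deposited floor in all 6 samples and had its 3 samples at 120 min below all 3 at 0 min. At 0 min 16 of the 30 had a mean relative signal above 1000, against 2 of the 20 risers. The share above 1000 among all tested miRNAs was not counted. Median deposited signal over the 12 samples was 859.4 for the lower, 178.2 for the higher and 106.2 for those passing neither way. The 0 min mean is part of the change and the common floor limits how far a low miRNA can fall, so this contrast is partly built in. The changes of the 30 ran from -0.39 (miR-15b) to -0.99 (miR-2137) with a median of -0.67, and those of the risers from 0.31 to 3.74 with a median of 0.68.

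The steepest changes were those of miR-2137, miR-126-3p and miR-1224. MiR-126-3p, which lies in the Egfl7 gene (chr2:26591402-26591423, plus strand) and is a marker of endothelium and of blood stem cells, had relative signal of 285, 242 and 252 at 0 min and 144.7, 117 and 130.2 at 120 min. MiR-1224, spliced as a short intron from Vwa5b2 (chr16:20604452-20604472), had 2359, 1415 and 1765 at 0 min and 1081, 987 and 728 at 120 min, and miR-2137 had 175, 136.2 and 174 at 0 min and 87.0, 86.2 and 68.7 at 120 min. Each of the 3 miRNAs had about the same log2 change (-0.99 ± 0.15, -0.97 ± 0.20 and -0.99 ± 0.17), with adjusted p of 0.00092, 0.00299 and 0.0012. Their deposited changes of -0.35, -0.34 and -0.36 did not pass. MiR-199a-3p, a mesenchymal marker, was the other relatively lower miRNA among the markers of other cell types and went from 742 ± 123 at 0 min to 471 ± 35.2 at 120 min (-0.65 ± 0.16, adjusted p = 0.00961). From the other arm of the miR-199a hairpin, miR-199a-5p had a change of 0.04 (adjusted p = 0.879), with means going from 117 ± 15.7 at 0 min to 121 ± 18.1 at 120 min. Of the other markers on this list, miR-143, miR-145, miR-214 and miR-10b had no signal above the floor at either time. MiR-10a, which was not tested, had mean deposited signal of 20.3 at 0 min and 34.5 at 120 min. Whether other cells had a part in these changes was not tested.

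Among miRNAs with roles in macrophages, miR-27a, which others have found lowered by Toll-like receptor signals, had relative signal of 9607, 6933 and 7181 at 0 min and 5067, 4468 and 4287 at 120 min. Replicate 1 was the highest of the 3 at both times, and the groups were apart (-0.77 ± 0.13, adjusted p = 0.00118). Its deposited signal overlapped, at 10439, 4494 and 4287 at 0 min and 8363, 4506 and 4066 at 120 min (-0.13, adjusted p = 0.824). MiR-23a, from the same transcript, had a smaller change (-0.41 ± 0.09), from 5399.7 ± 185 at 0 min to 4054 ± 169.9 at 120 min. MiR-139-5p, hosted by the phosphodiesterase gene Pde2a, had -0.74, with all its 120 min samples at or just above the common floor, so that a steeper change could not have been seen. MiR-130b went from 704 ± 94.9 at 0 min to 417 ± 33.4 at 120 min (-0.75 ± 0.13), miR-872 from 265 ± 43.1 at 0 min to 146.5 ± 20.6 at 120 min (-0.85 ± 0.19), and miR-181a, a regulator of lymphocyte receptor signalling, from 439 ± 25.6 at 0 min to 326 ± 26.8 at 120 min (-0.43 ± 0.12).

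MiR-20a and miR-20b, read by 1 probe, gave the most abundant signal that was lower. MiR-20a is a member of the miR-17-92 polycistron (chr14:115044183-115044205, plus strand), which promotes proliferation. The relative signal of that probe was 33359, 26825 and 25681 at 0 min and 19928, 17729 and 16132 at 120 min, and the deposited signal 36250.0, 17388 and 15331 at 0 min and 32893, 17881 and 15299 at 120 min. The relative values do not overlap (-0.67 ± 0.15, adjusted p = 0.00516) and the deposited ones do (-0.03, adjusted p = 0.957). The relative call passed under 17 of 18 alternatives and was lost under ligation control scaling (limma, adjusted p = 0.0532). Of 6 tested members of the polycistron this probe was the only one called on the relative scale, which is near the 18.2% lower over all miRNAs. The 6 had a median of 0.10 and a highest value of 0.24 for miR-92a. Of the 5 most abundant miRNAs, this probe and let-7g were lower, and miR-720 (-0.07), let-7a and the probe of miR-17 and miR-106a did not pass.

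The lower set also held miRNAs with little known role in macrophages. MiR-1944 was abundant, with relative signal of 15637, 13975 and 12312 at 0 min and 9074, 8178 and 8655 at 120 min (-0.69 ± 0.16, adjusted p = 0.00722), and its groups were apart. MiR-421 (-0.73), miR-2141 (-0.68) and miR-374 (-0.49) changed by similar or smaller amounts. MiR-326, within the beta-arrestin gene Arrb1 and known for promoting Th17 cells, had -0.68 ± 0.22 (adjusted p = 0.0374). Its call passed under 7 of 18 alternatives, and of the single replicates only without 0 min replicate 3 or without 120 min replicate 3 (-0.48 to -0.90).

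**Figure D3:**
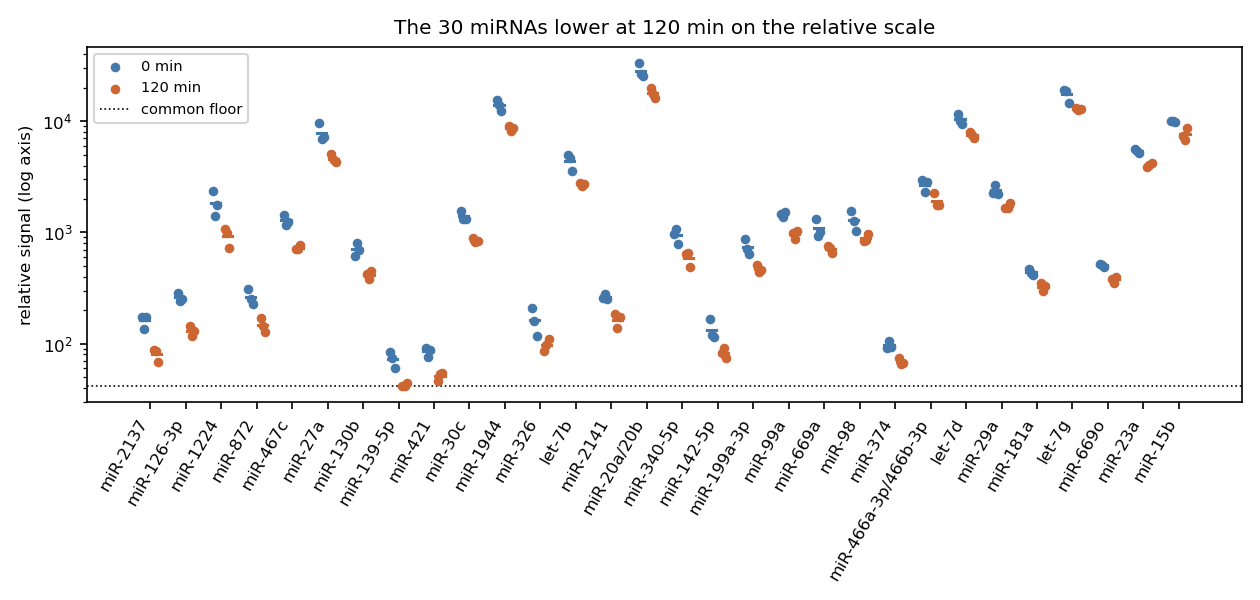
Relative signal (log axis) of the 30 miRNAs called lower at 120 min, ordered by the size of the change, with the 3 samples of 0 min in blue and of 120 min in orange, a short line at each mean and the common floor of 41.7 dotted. In each of the 30 the orange points lie below the blue ones.

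Families with a common seed held members with different calls. The let-7 family with miR-98, all of seed GAGGUAG, had 9 tested members, 4 lower, 0 higher and a median change of -0.28. Over all 165 miRNAs 18.2% were lower and 12.1% higher, with a median of -0.05. Let-7b (chr15:85707325-85707346) had relative signal of 5012, 4648 and 3567 at 0 min and 2786, 2624 and 2737 at 120 min (-0.68 ± 0.12, adjusted p = 0.00118). Let-7a, which differs from let-7b at 2 of 22 bases, had 10884, 16510.5 and 11305 at 0 min and 12856, 14445 and 15076 at 120 min (0.15 ± 0.14, adjusted p = 0.457) and its groups overlapped. Let-7g (-0.43 ± 0.11), let-7d (-0.47 ± 0.15) and miR-98 (-0.52 ± 0.14) were the other lower members. The call of let-7d was lost without either of 0 min replicates 1 and 2 (-0.39 and -0.49) and without either of 120 min replicates 2 and 3 (-0.48 and -0.43). Those of let-7g and miR-98 each passed under 15 of 18 alternatives. The highest value in the family was the 0.16 of let-7f. How far such near-identical members cross-react on the panel was not tested.

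In the miR-15/16 family (seed AGCAGCA), miR-16 was higher and miR-15b lower, the latter from 9991 ± 191.003 at 0 min to 7641 ± 933 at 120 min (-0.39 ± 0.10, adjusted p = 0.00956). Both are known to restrain the cell cycle. MiR-15a, made with a miR-16 copy from Dleu2, had -0.30 (adjusted p = 0.055) and did not pass. The call of miR-15b was lost under 4 of 18 alternatives, in 3 of which the scaling was changed.

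The seed AAAGUGC, of miR-17, miR-20a, miR-93 and miR-106b, gave 1 higher and 1 lower of 4 tested probes, too few to set against the 12.1% and 18.2% over all miRNAs. MiR-106b, from an intron of the replication gene Mcm7 (chr5:138165787-138165807), had relative signal of 646, 808 and 769 at 0 min and 1029.6, 1007 and 937 at 120 min (0.42 ± 0.10, adjusted p = 0.00722), and the probe of miR-17 and miR-106a had -0.01 ± 0.08 and did not pass (adjusted p = 0.93). MiR-17 and miR-20a come from 1 transcript and differ at 2 of 23 bases. In the miR-30 family, a set with roles in differentiation and autophagy, miR-30c was lower (1567, 1318 and 1311 at 0 min and 885, 812 and 839.6 at 120 min, log2 change -0.72 ± 0.13) and miR-30d higher. In the miR-29 family, which targets collagen and other matrix genes, miR-29a was lower (2391 ± 249.7 at 0 min to 1725 ± 104 at 120 min, log2 change -0.47 ± 0.11), while miR-29c had 0.26 and did not pass (adjusted p = 0.0932). MiR-99a was lower too (-0.60 ± 0.10, adjusted p = 0.00118), whereas miR-99b had 0.24 and miR-100 did not pass either (-0.09).

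The miR-23/27/24 clusters held 2 lower members, miR-23a and miR-27a, and 1 higher, miR-24, with 2 not passing (miR-23b at -0.17 and miR-27b at -0.22). These 5 are too few to set against the 12.1% higher and 18.2% lower over all tested miRNAs. MiR-24, whose sequence is made from both clusters, was low in signal, at 100.0, 108 and 132.3 at 0 min and 140.1, 157 and 145.99 at 120 min. Its groups were apart by little (0.38 ± 0.11, adjusted p = 0.018). MiR-103 and miR-107 differ at 1 of 23 bases, and miR-107 had a change of 0.38 ± 0.16 that did not pass (adjusted p = 0.0987).

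**Figure D4:**
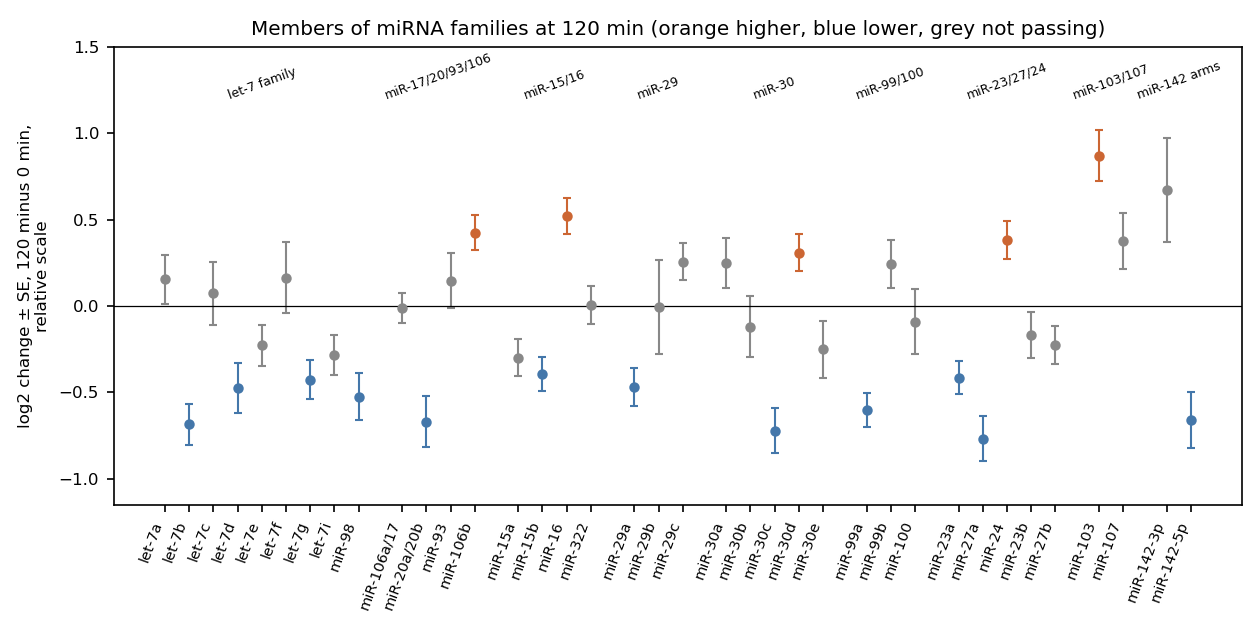
Log2 change from 0 to 120 min on the relative scale, with its SE as bars, for the tested members of 9 miRNA families, clusters or hairpins, with members called higher in orange, lower in blue and not passing in grey. The AAAGUGC seed group, miR-15/16, miR-30 and miR-23/27/24 groups each hold at least 1 orange and 1 blue point, and let-7 holds blue and grey points.

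The ratio of 2 miRNAs in a sample does not depend on any factor given to the whole sample, so it is the same on both scales. Ratios of 14 related pairs, chosen after their values were seen and therefore given with no test, are described here. That of miR-16 to miR-15b was 0.647, 0.738 and 0.836 at 0 min and 1.40, 1.41 and 1.35 at 120 min. That of let-7a to let-7b was 2.17, 3.55 and 3.17 at 0 min and 4.61, 5.51 and 5.51 at 120 min, and that of let-7a to let-7g 0.572, 0.886 and 0.767 at 0 min and 0.969, 1.15 and 1.172 at 120 min. In each pair the 3 ratios at 120 min exceeded all 3 at 0 min.

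A similar order held in other pairs. The ratio of the probe for miR-17 and miR-106a to the probe for miR-20a and miR-20b was 0.312, 0.385 and 0.449 at 0 min and 0.555, 0.579 and 0.662 at 120 min. The ratio of miR-24 to miR-27a was 0.0104, 0.0156 and 0.0184 at 0 min and 0.0276, 0.0350 and 0.0341 at 120 min, a log2 change of 1.15, and that of miR-30d to miR-30c 0.0612, 0.0709 and 0.0835 at 0 min and 0.140, 0.138 and 0.161 at 120 min (log2 change 1.03). Of the 14 pairs 13 did not overlap between 0 and 120 min, the exception being miR-425 to miR-191, 2 miRNAs of 1 cluster on chromosome 9, at 1.14, 0.909 and 1.04 at 0 min and 1.08, 1.36 and 1.27 at 120 min. In all pairs the miRNA with the higher relative change was put first, so ratios higher at 120 min were set by that choice. How many pairs among all tested miRNAs would be apart was not counted, so the 13 say nothing of related miRNAs as a group.

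The arms of the miR-142 hairpin, a marker of all blood lineages (chr11:87756903-87756925 for the 3p arm and chr11:87756867-87756887 for the 5p arm), had the largest change in ratio of the 14 pairs, 1.34. The 3p to 5p ratio was 32.6, 45.2 and 36.7 at 0 min and 130.004, 109.7 and 61.0 at 120 min. The 5p arm was relatively lower, at 164.6, 119 and 114 at 0 min and 82.3, 91.7 and 74.2 at 120 min (-0.66 ± 0.16, adjusted p = 0.00863). The 3p arm had 5370.1, 5378 and 4173 at 0 min and 10701, 10063 and 4524 at 120 min, with the third 120 min sample inside the 0 min range, and did not pass on the relative scale (0.67 ± 0.30, adjusted p = 0.117). On the deposited scale it passed (1.31, adjusted p = 0.00542), but under 10 of 16 alternatives only, and not without 0 min replicate 3 (1.02, adjusted p = 0.0869) or without 120 min replicate 1 (0.83, adjusted p = 0.175). Of the arms of the miR-340 hairpin, from Rnf130, miR-340-5p was lower (-0.66 ± 0.15, adjusted p = 0.00546) and miR-340-3p had 0.00 and did not pass. The difference between the arms was not tested.

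**Figure D5:**
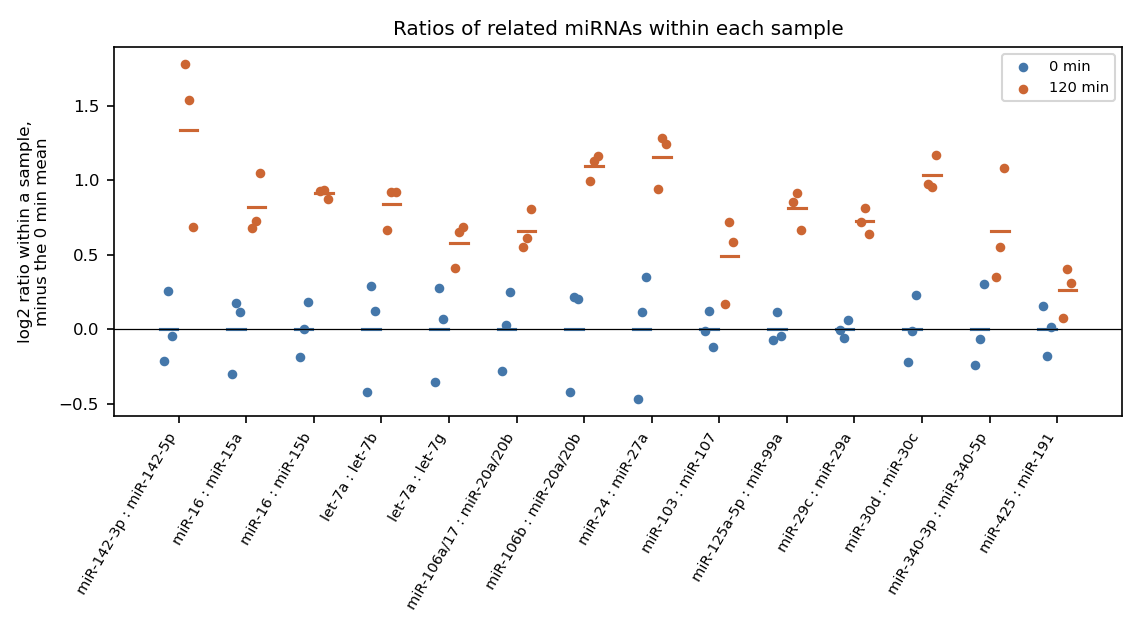
Log2 ratio of 2 related miRNAs within each sample, minus the mean of the 0 min samples, for 14 pairs, with the 3 samples of 0 min in blue and of 120 min in orange and a short line at each mean. The orange points lie above the blue ones in 13 pairs, and the change is largest for miR-142-3p to miR-142-5p, at 1.34. The pairs were chosen after their values were seen, with the miRNA of higher relative change put first.

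Lists of miRNAs known from other studies of Toll-like receptor signalling were only partly measured. Of 12 miRNAs described as induced by LPS, 6 passed the filter, and 2 of these were higher on the relative scale (miR-146a and miR-21) and 0 lower. Over all tested miRNAs 12.1% were higher, and the 6 had a median change of 0.23 against -0.05 for all miRNAs. These 6 are too few to set against that share, and the call of miR-21 passed under only 10 of 18 alternatives. MiR-155, the best known of the 12, was at the floor of 20 in all 12 samples. MiR-125a-5p and miR-99b, of the cluster with let-7e, had 0.21 (adjusted p = 0.1) and 0.24 and did not pass, nor did let-7e (-0.23) or miR-132 (-0.26), a miRNA induced through CREB. Of 6 described as lowered, 2 were lower (miR-27a and miR-98) and 0 higher on the relative scale. Over all tested miRNAs 18.2% were lower, and 6 members are too few to set against that share. Of the rest, miR-92a had 0.24 and was called higher on the deposited scale (1.45, adjusted p = 0.00168). MiR-92a passed the filter only through the 120 min samples, with a mean of 26.4 over the other 9, so that its call supports nothing further. MiR-125b-5p had 0.24 and let-7i -0.28, and miR-223, a regulator of granulocyte and macrophage maturation, had -0.12 (adjusted p = 0.471).

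The miR-297, miR-466, miR-467 and miR-669 miRNAs, a repeat-rich group with many members in an intron of Sfmbt2, had 18 of 33 members tested, 2 higher and 4 lower, with a median of -0.12. These counts are close to the 12.1% higher and 18.2% lower over all tested miRNAs. The members placed by the RefSeq table, miR-466k on chromosome 3 and miR-467f on chromosome 11, lie outside Sfmbt2, and neither passed. MiR-467c was the steepest faller of the group, at 1421, 1176 and 1246 at 0 min and 705, 709 and 765 at 120 min (-0.81 ± 0.11, adjusted p = 0.000652). MiR-669a (-0.59), miR-669o (-0.42) and the probe of miR-466a-3p and miR-466b-3p (-0.48) were lower, and miR-466h was higher. The call of miR-669a was lost without 0 min replicate 1 or 120 min replicate 3 (-0.45 and -0.53), and that of the shared probe without 0 min replicate 1 or 120 min replicate 2 (-0.41 and -0.42). These members are near-identical in sequence, and which of them a probe reads could not be told apart.

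Against 60 min, on the relative scale, 7 miRNAs (4.24%) were higher and 1 (0.606%) lower at 120 min in limma. MiR-146a had 3304 ± 300.2 at 0 min, 3164 ± 116 at 60 min and 5017 ± 481 at 120 min (SD, n = 3 each), a difference from 60 to 120 min of 0.66 (adjusted p = 0.00396), and miR-221 had 307 ± 38.4 at 0 min, 268 ± 54.7 at 60 min and 509 ± 30.2 at 120 min (0.94, adjusted p = 0.00396). In both the 60 min mean lay below the 0 min mean. The one lower miRNA was miR-125a-3p, at 49.6 ± 12.96 at 0 min, 150.3 ± 42.7 at 60 min and 55.6 ± 14.3 at 120 min (-1.41, adjusted p = 0.0208). Without 120 min replicate 3 the 8 calls became 5.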

How the data were processed

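The deposited table of the values of 12 samples was used, in a unit called signal. The way the authors normalized the deposited signal was not given in the sources used here. Per the labels' protocols RNA was extracted with a miRNeasy kit. In every sample the deposited signal between 20 and 2000 is a whole multiple of 1 step, within 0.1 of a step, the geometric mean of the housekeeping mRNAs (Actb, B2m, Gapdh, Rpl19) is 9390.3 in all samples and no miRNA lies under 20. Counts given as depth are signal above the floor divided by the step, and no count model was fitted. In 0 min replicate 1, with the largest step, the floor can hide signal of up to 45.3, and the relative scale therefore has a common floor of 41.7.

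Mouse miRNAs with a mean over 12 samples above 30.5 (mean plus 2 SD of the 8 negative controls) were tested on log2 of signal plus 1. Fold changes are on that scale and understate those of low miRNAs. The negative controls are given as counts without the step of the sample, so the cut of 30.5 and the signal are not in the same unit. In 0 min replicate 1, with a step of 2.26 and a negative-control mean of 13.25 counts, a signal at the cut lies closer to background than in the other samples. A model with 1 mean per time was fitted over all 12 samples with limma 3.58.1 in R 4.3.3, with Benjamini-Hochberg adjustment over the tested miRNAs. On the deposited scale limma pooled the variance, so every log2 change has an SE of 0.38. The p values on that scale therefore follow the size of the change alone and do not measure the spread of each miRNA. On the relative scale SEs ran from 0.06 to 0.45. Only the fit on the relative scale was tried on simulated data, and its outcome is not given here. Sequences, genome positions and host genes are from RefSeq tables (GRCm38.p6).

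Members, lists and comparisons were chosen with earlier results of these data known. Named miRNAs are up to 15 with the largest relative rise and fall among those passing, up to 10 on the deposited scale, tested members of the 2 lists on Toll-like receptor signalling, up to 5 of each family or seed group and the 5 most abundant. MiR-181a, let-7f, miR-155, miR-374, miR-3471, miR-466g, miR-2146 and some markers of other cell types lie outside that rule and were chosen after their values were seen. The alternatives (floor, scaling, filter, pseudocount, variance, samples, replicate block, replicates left out) and their effect are given in the closing section.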

Additional observations from a re-analysis of the deposited data

Results flagged for a closer look

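On the relative scale 8 miRNAs had changes from 0 min that differed between 120 and 60 min by the test of that difference (limma, adjusted p from 0.00396 to 0.0339). The largest belonged to miR-125a-3p, cut from the opposite arm to miR-125a-5p, at -1.41, with mean relative signal of 49.6 ± 12.96 at 0 min, 150.3 ± 42.7 at 60 min and 55.6 ± 14.3 at 120 min (SD, n = 3 each). The other 7 were higher at 120 than at 60 min. MiR-2146 differed by 0.95 and had 61.6 ± 13.6 at 0 min, 47.0 ± 5.29 at 60 min and 95.8 ± 37.7 at 120 min. MiR-221 differed by 0.94, miR-146a by 0.66 and miR-22, which is widely expressed, by 0.64, with miR-22 at 2245 ± 458 at 0 min, 1151 ± 154.05 at 60 min and 1783 ± 49.7 at 120 min, so that its level at 60 min was the lowest of these 3 times. MiR-1970 (0.85), miR-466h (0.67) and miR-701 (0.51) were at the common floor of 41.7 in all 3 samples at 0 min, and at 60 min had means of 46.2, 41.7 and 45.7, so these differences are measured against the floor. MiR-1970 and miR-466h passed the filter only through the 120 min samples (means of 27.9 and 27.9 over the other 9), so their calls carry no weight as support.

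Among the 33 herpesvirus probes, which were not tested, 2 were at the floor of 20 in all 3 samples at 0 min and above it in all 3 at 120 min. The probe mcmv-miR-m88-1 had 48.2, 38.3 and 44.9 at 120 min (mean signal 43.8), and mghv-miR-M1-7-5p had 51.5, 30.3 and 44.9 (mean 42.2). These cells are not labelled as infected. Depth and ligation yield were also higher in all 3 samples at 120 min, and their part in these values was not tested. Other herpesvirus probes reached 65.7 in 0 min replicate 1.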

How the results depend on the processing

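Under the alternatives that gave them a value, all 20 relatively higher and all 30 relatively lower miRNAs kept their direction, and the counts ran from 14 to 29 higher and from 14 to 45 lower. Scaling to the ligation controls gave the 14 lower calls. The 14 higher calls came with a mean above 100 required, where 14 of the 20 were still tested and 13 kept their call. Leaving out single replicates gave 18 to 23 higher and 25 to 34 lower, and leaving out the first replicates of 0 and 120 min together, an alternative chosen after seeing the data, 18 and 20. The 36 higher calls on the deposited scale became 15 under a common floor, 22 under ligation control scaling and 16 to 77 without single replicates. With a mean above 100 required 18 of the 36 were still tested, and all 18 kept their call. The 0 lower calls became 32 under ligation control scaling alone, which was run here without the common floor that it had on the relative scale. The 8 differences between 120 and 60 min became 5 without the common floor, 27 under ligation control scaling, 3 with the stricter filter, 4 with each miRNA's own variance and 5 to 9 without single replicates. The summed signal difference of 0.46 was -0.18 on the relative scale and -0.17 under ligation control scaling, and 0.19 to 0.76 without single replicates. The cause of these differences was not tested. With replicate number as a block the deposited scale gave 61 higher calls, the relative scale 20 higher and 30 lower, the 120 against 60 min comparison 9, and the summed difference stayed at 0.46 (exact p = 0.25). The numbers were not taken to pair samples: deviations of same-numbered samples correlated at 0.302, 0.0342 and 0.35 on the deposited scale, where each sample correlated best with its own number (a hint from the data, not the design), and at 0.175, 0.0311 and 0.267 on the relative scale, where not all did. Floored signal at 0 min, most of all in replicate 1 with its low depth, limits what can be said of low miRNAs.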

Other observations

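Of 33 tested probes whose names carry an arm suffix, 1 was relatively higher at 120 min and 6 were lower, with a median change of -0.04, against 12.1% higher and 18.2% lower over all tested miRNAs. Among the 119 miRNAs matched to a RefSeq sequence, those ending in A (34) had 7 higher and 3 lower members, with a median of 0.12. Those ending in U (43) had 5 higher and 9 lower (median -0.04), those ending in G (30) had 4 higher and 7 lower (median -0.01) and those ending in C (12) had 1 higher and 3 lower (median -0.08). Higher members had a median GC content of 47.8%, lower members 44.5% and members that passed neither way 43.2%. Across the 119 miRNAs, which are not independent replicates and share 6 libraries, Pearson's r between GC content and relative change was 0.08. These values are descriptions of sequence groups looked at after the changes were known.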
